A study of Saccharomyces cerevisiae with 14 samples.

Results

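The genes described here are 10 dehydrogenase genes of Saccharomyces cerevisiae central metabolism that use NAD+ or NADH: the alcohol dehydrogenase genes ADH1, ADH2, ADH3, ADH4 and ADH5, the glycerol 3-phosphate dehydrogenase genes GPD1 and GPD2, the malate dehydrogenase genes MDH1 and MDH2, and the formate dehydrogenase gene FDH1. They were chosen by name and enzyme class, and each was found as 1 probe set, so they make up 10 of 5449 genes measured. No probe set of the 10 is of the design shared between near-identical genes, although FDH1 has a pseudogene relative, FDH2, and the ADH1 and ADH2 genes are closely alike, and hybridisation between such copies was not tested.

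Transcript levels were measured on 14 Affymetrix Yeast Genome 2.0 arrays as log2 signal. Every strain was MATa and carried his3D200, leu2D1, met15D0, trp1D63 and ura3-167, so controls and mutants alike were auxotrophic for several amino acids and for uracil. The groups of 2 arrays, A and B, were npt1Δ, pnc1Δ, bna1Δ and tna1Δ, each a kanMX4 replacement, wild type in nicotinamide (5 mM), and untreated wild type as the pairs ML1 and ML8. All cells grew in rich YPD medium and were taken in log phase. NPT1 and PNC1 serve the salvage of nicotinic acid and nicotinamide, BNA1 the synthesis of NAD+ from tryptophan and TNA1 the uptake of nicotinic acid. The labels do not tie a wild-type pair to a condition, so the 4 wild-type arrays were the control of every comparison, and the 5 comparisons share them. What was asked is whether transcripts of enzymes that depend on NAD+ differed when a route to NAD+ was cut or nicotinamide was added.

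These enzymes decide where yeast cells put the electrons carried by NADH. In cells growing on glucose, alcohol dehydrogenase I turns acetaldehyde into ethanol and returns NAD+ to glycolysis, while glycerol 3-phosphate dehydrogenase does the same by making glycerol, which also balances the osmotic pressure. Malate dehydrogenases interconvert malate and oxaloacetate in mitochondria and cytosol, and formate dehydrogenase oxidises formate to carbon dioxide.

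Among the 10 genes, the changes that passed the test fell on GPD1, FDH1, ADH2 and MDH2. A gene without a call was not always steadier: the condition means of ADH5 spanned 0.86 (log2), against 0.76 for MDH2 and 0.64 for ADH2. GPD1 and FDH1 rose in npt1Δ, FDH1 and ADH2 rose in nicotinamide, MDH2 fell in pnc1Δ, and none of the 10 was called in bna1Δ or tna1Δ. Called means an adjusted p under 0.05 in limma's moderated test, with Benjamini-Hochberg adjustment over all 5498 probe sets of S. cerevisiae genes. At an unadjusted p under 0.05, 2 of the 10 differed in bna1Δ and 0 in tna1Δ. Among those probe sets, 4.2% were called in npt1Δ, 15.9% in nicotinamide and 2.24% in pnc1Δ, so 2 of 10 in nicotinamide is a share near that of all genes. In bna1Δ and again in tna1Δ the share was 0.0182%, which is 1 probe set. Over the 6 conditions together the same 4 genes passed the moderated F test (13.6% of all probe sets did), with adjusted p = 1.76e-05 for FDH1, 0.0278 for GPD1, 0.0312 for MDH2 and 0.0447 for ADH2. After quantile normalization of the deposited values FDH1, GPD1 and MDH2 passed that F test again and ADH2 did not (adjusted p = 0.142).

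**Figure D1:**
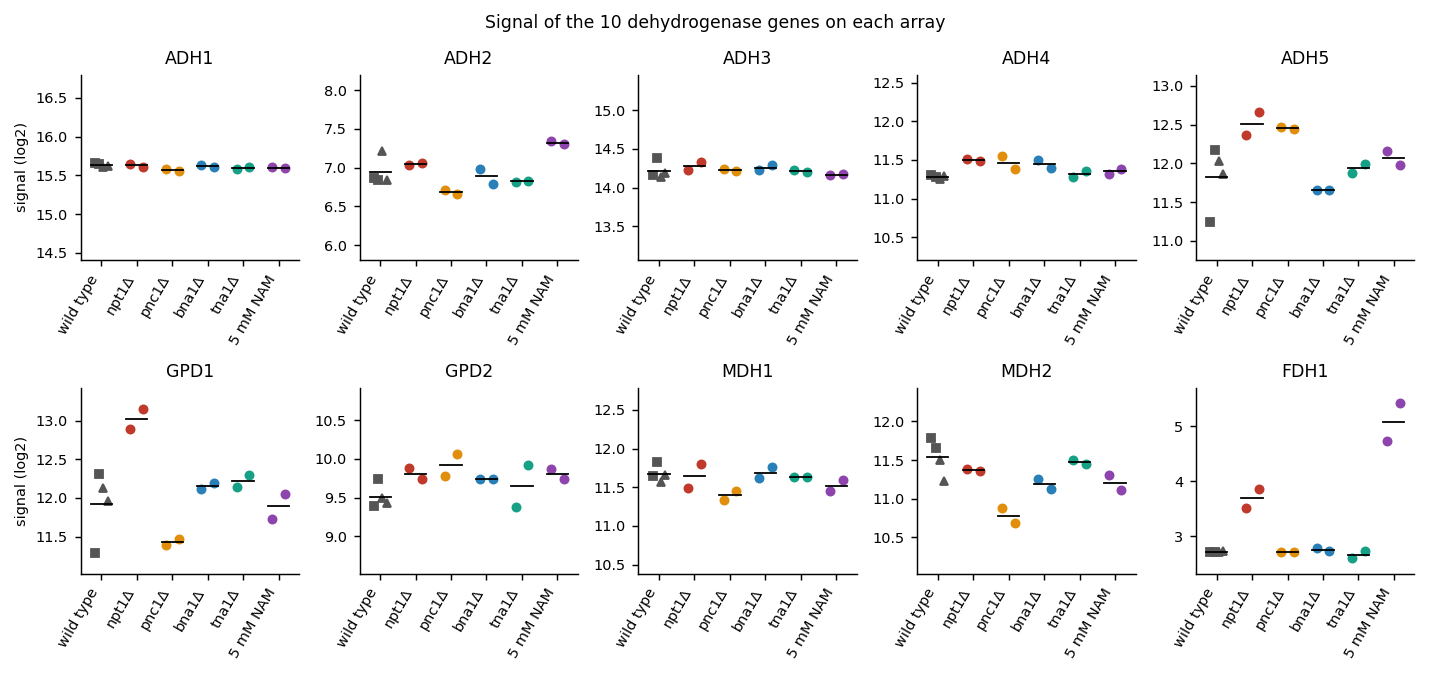
Signal (log2) of each gene on each of the 14 arrays, by condition on the horizontal axis; squares are the ML1 and triangles the ML8 wild-type arrays, circles the other arrays, and black lines group means (NAM, nicotinamide). FDH1 stands higher on the npt1Δ and nicotinamide arrays, GPD1 on the npt1Δ arrays, and MDH2 lowest on the pnc1Δ arrays, while 1 ML1 array lies below the other wild-type arrays for ADH5 and GPD1; vertical scales differ between genes.

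Each deleted gene was near background in its own strain, at 1.89 to 2.28 over the 4 genes, and at 9.45 or more on all other arrays. Array A of the ML1 pair stood apart from the rest of wild type. In 161 probe sets its signal was over 1 (log2) away from the average of the other 3, against 12 to 74 for each of those, and it held the lowest signal of all 14 arrays for ADH5 and GPD1. Calls of the 10 genes that turn on it are given with and without it, as are the list counts it moved.

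ADH1, the main enzyme of ethanol formation, kept a high and even signal. Its wild-type signals were 15.65 and 15.65 (ML1) and 15.61 and 15.61 (ML8), those of npt1Δ 15.65 and 15.61, of pnc1Δ 15.58 and 15.55, of bna1Δ 15.63 and 15.61, of tna1Δ 15.58 and 15.61, and of nicotinamide 15.61 and 15.60. Differences from wild type lay between -0.06 (pnc1Δ, 95% interval -0.16 to 0.03) and -0.0017 (npt1Δ, 95% interval -0.10 to 0.09), and none was called. The signal exceeded that of 99.8% of the probe sets tested and came within 0.11 (log2) of the brightest probe set on its array, and whether it could still register a rise was not tested.

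ADH2, which encodes the glucose-repressed enzyme that consumes ethanol, rose modestly in nicotinamide. Its signals were 7.34 and 7.31 there, against 6.87 and 6.84 (ML1) and 7.22 and 6.84 (ML8) in wild type, so both nicotinamide arrays lay above all wild-type arrays. The difference was 0.38 ± 0.10 (log2, SE, 1.31-fold, adjusted p = 0.0321). In pnc1Δ the signals of 6.71 and 6.67 lay below every wild-type array, with a difference of -0.25 ± 0.10 that was not called (adjusted p = 0.282). The npt1Δ arrays read 7.04 and 7.06, bna1Δ 6.98 and 6.79, and tna1Δ 6.82 and 6.83, with differences of 0.11, -0.05 and -0.12, none called. Set directly against the deletions, nicotinamide was higher than pnc1Δ by 0.64 ± 0.12 (1.55-fold, adjusted p = 0.00457), than tna1Δ by 0.50 (adjusted p = 0.0197) and than bna1Δ by 0.44 (adjusted p = 0.0387). Against npt1Δ it did not pass, with npt1Δ minus nicotinamide at -0.275 (adjusted p = 0.2145). The nicotinamide call was lost against the ML8 pair alone (0.30, adjusted p = 0.131), with only the nicotinamide and wild-type arrays fitted (adjusted p = 0.15), after quantile normalization of the deposited values (0.29, adjusted p = 0.103), and without ML1 array B, ML8 array B or either nicotinamide array (0.35 to 0.40, adjusted p = 0.0694 to 0.156).

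ADH3, the mitochondrial alcohol dehydrogenase gene, did not pass the test in any condition. Its signal ran from 14.14 (ML8 array A) to 14.38 (ML1 array B), a span set entirely by wild-type arrays, and the condition means differed from wild type by -0.05 (nicotinamide) to 0.06 (npt1Δ).

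ADH4, an alcohol dehydrogenase gene whose enzyme is of another protein family than the other 4 and which cells raise when zinc is short, varied little among wild-type arrays and lay slightly higher in 3 deletions and in nicotinamide. The wild-type signals were 11.31 and 11.27 (ML1) and 11.26 and 11.29 (ML8), an SD of 0.02 (n = 4). The arrays read 11.51 and 11.49 in npt1Δ, 11.55 and 11.38 in pnc1Δ, 11.50 and 11.39 in bna1Δ and 11.32 and 11.38 in nicotinamide, all above the wild-type range, while tna1Δ at 11.28 and 11.35 overlapped it. The differences of 0.21 ± 0.06 (npt1Δ), 0.18 (pnc1Δ) and 0.16 (bna1Δ) were not called (adjusted p = 0.0862, 0.167 and 0.9998), and those of nicotinamide (0.07) and tna1Δ (0.03) were smaller still.

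ADH5, which encodes a minor alcohol dehydrogenase, had its highest signals in npt1Δ (12.37 and 12.66) and pnc1Δ (12.47 and 12.45), above wild type at 11.24 and 12.17 (ML1) and 12.03 and 11.87 (ML8). The differences were 0.69 ± 0.21 in npt1Δ (1.61-fold, adjusted p = 0.132) and 0.63 ± 0.21 in pnc1Δ (1.55-fold, adjusted p = 0.178), and neither was called. Without ML1 array A the npt1Δ difference became smaller but passed the test (0.49 ± 0.11, adjusted p = 0.035). The pnc1Δ difference also became smaller without that array, which held the lowest wild-type signal. The bna1Δ arrays (11.65 and 11.65) had the lowest mean, below that of wild type by 0.18, but lay within the wild-type range. The arrays of tna1Δ (11.88 and 12.00) and nicotinamide (12.16 and 11.98) lay within it too, and none of these conditions was called. Without ML1 array A these differences were -0.37 in bna1Δ, -0.09 in tna1Δ and 0.05 in nicotinamide, again with no call.

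GPD1, the glycerol 3-phosphate dehydrogenase gene that answers osmotic stress, rose in npt1Δ. Its signals were 12.88 and 13.16 in that strain, above every other array, and 11.29 and 12.31 (ML1) and 12.13 and 11.96 (ML8) in wild type. The difference was 1.10 ± 0.23 (log2, 2.14-fold, adjusted p = 0.0235), and 0.89 ± 0.13 without ML1 array A (adjusted p = 0.0032). In pnc1Δ, GPD1 read 11.40 and 11.47, lower than 3 of the 4 wild-type arrays and higher than ML1 array A. That difference of -0.49 ± 0.23 was not called (adjusted p = 0.372), and without ML1 array A it was -0.70 ± 0.13 and passed (adjusted p = 0.0218). The bna1Δ (12.11 and 12.19) and tna1Δ (12.13 and 12.30) arrays lay within the wild-type range, as did nicotinamide (11.73 and 12.05), with differences of 0.23, 0.29 and -0.03. Without ML1 array A they were 0.02, 0.08 and -0.24, none called, and nicotinamide array A then lay below the other wild-type arrays.

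The npt1Δ strain also differed from other conditions in GPD1. It was higher than pnc1Δ by 1.58 ± 0.27 (3-fold, adjusted p = 0.00539) and higher than nicotinamide by 1.13 ± 0.27 (2.19-fold, adjusted p = 0.0267). Against bna1Δ (0.87, adjusted p = 0.139) and tna1Δ (0.80, adjusted p = 0.231) the difference did not pass. The call against wild type was lost against the ML8 pair alone (0.97, adjusted p = 0.12), with only the npt1Δ and wild-type arrays fitted (adjusted p = 0.215), and without npt1Δ array A (1.23, adjusted p = 0.0899), npt1Δ array B (0.96, adjusted p = 0.202) or ML8 array B (1.11, adjusted p = 0.051).

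GPD2, the isoenzyme gene best known from growth without oxygen, did not pass in any condition. Every condition mean lay above that of wild type, by 0.14 (tna1Δ) to 0.41 ± 0.15 (pnc1Δ, 1.32-fold, adjusted p = 0.23), with 0.30 in npt1Δ, 0.29 in nicotinamide and 0.22 in bna1Δ. The wild-type arrays read 9.39 and 9.74 (ML1) and 9.50 and 9.43 (ML8), and the pnc1Δ arrays 9.77 and 10.06. The pnc1Δ and nicotinamide arrays lay above the wild-type range and the other conditions overlapped it, and tna1Δ, at 9.38 and 9.93, spanned more than any other pair.

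MDH2, the cytosolic malate dehydrogenase gene of the glyoxylate route and of glucose synthesis, fell in pnc1Δ. Its signals were 10.88 and 10.69 there, against 11.78 and 11.66 (ML1) and 11.50 and 11.23 (ML8) in wild type, and no other array was as low. The difference was -0.76 ± 0.13 (log2, 1.70-fold lower, adjusted p = 0.0162). It was -0.94 against the ML1 pair and -0.58 against the ML8 pair, both called (adjusted p = 0.00387 and 0.0407). The call was lost with only the pnc1Δ and wild-type arrays fitted (adjusted p = 0.18), and without pnc1Δ array A (-0.86, adjusted p = 0.0961), pnc1Δ array B (-0.67, adjusted p = 0.157) or ML1 array B (-0.72, adjusted p = 0.0513).

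In other conditions MDH2 was lower than the wild-type mean without passing the test. The signals were 11.38 and 11.35 in npt1Δ, 11.25 and 11.13 in bna1Δ, 11.50 and 11.44 in tna1Δ and 11.31 and 11.11 in nicotinamide. The differences were -0.18, -0.35, -0.07 and -0.33, with the ML1 pair itself 0.35 ± 0.11 above the ML8 pair (adjusted p = 0.193). The nicotinamide difference depended on the control: against the ML1 pair alone it was -0.51 and passed (adjusted p = 0.012), as it did without ML8 array B (-0.44, adjusted p = 0.0184), while against the ML8 pair it was -0.16 (adjusted p = 0.426). No difference between pnc1Δ and another condition passed for MDH2, the nearest being npt1Δ at 0.59 above pnc1Δ (adjusted p = 0.0549) and tna1Δ at 0.69 above it (adjusted p = 0.0704).

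MDH1, the mitochondrial malate dehydrogenase gene, differed less. The pnc1Δ arrays (11.34 and 11.45) lay below the wild-type arrays (11.65 and 11.83 for ML1, 11.56 and 11.65 for ML8), with a difference of -0.28 ± 0.10 that was not called (adjusted p = 0.202). Nicotinamide differed by -0.15, and the other 3 deletions by -0.04 to 0.02.

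FDH1, the formate dehydrogenase gene, was near background in wild type and rose in nicotinamide and in npt1Δ. Its signals were 4.73 and 5.41 in nicotinamide and 3.52 and 3.86 in npt1Δ. On the other 10 arrays the signal lay between 2.60 and 2.78, with the 4 wild-type arrays at 2.71 to 2.73, and the nicotinamide, npt1Δ and remaining arrays did not overlap. The difference from wild type was 2.36 ± 0.15 in nicotinamide (log2, 5.12-fold, adjusted p = 1.91e-06) and 0.97 ± 0.15 in npt1Δ (1.96-fold, adjusted p = 0.00395). In pnc1Δ, bna1Δ and tna1Δ it was -0.01, 0.03 and -0.06, with 95% intervals within -0.40 and 0.38. The npt1Δ level minus the nicotinamide level was -1.39 ± 0.18 (2.61-fold, adjusted p = 0.000701), and npt1Δ was higher than bna1Δ by 0.94, than pnc1Δ by 0.97 and than tna1Δ by 1.03 (adjusted p = 0.0145, 0.0084 and 0.00814).

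The size of the FDH1 change differed under quantile normalization, and why was not tested. All 14 arrays lay above the background limit of their array, which is the 95th percentile of 1746 probe sets whose annotated gene is not in the yeast reference and which ran from 2.22 to 2.26. The wild-type mean exceeded only 4.44% of the yeast probe sets tested, though 0.115% of those background probe sets were brighter. When the deposited values were quantile normalized, the nicotinamide arrays read 4.01 and 4.96 and the npt1Δ arrays 3.19 and 3.42, against 2.83 to 2.90 in wild type. The difference was then 1.61 in nicotinamide, which still passed (adjusted p = 0.000277), and 0.43 in npt1Δ, which did not (adjusted p = 0.333). Without npt1Δ array B the npt1Δ difference was 0.80 (adjusted p = 0.0676), and without nicotinamide array A or B the nicotinamide difference was 2.70 or 2.02, both called.

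**Figure D2:**
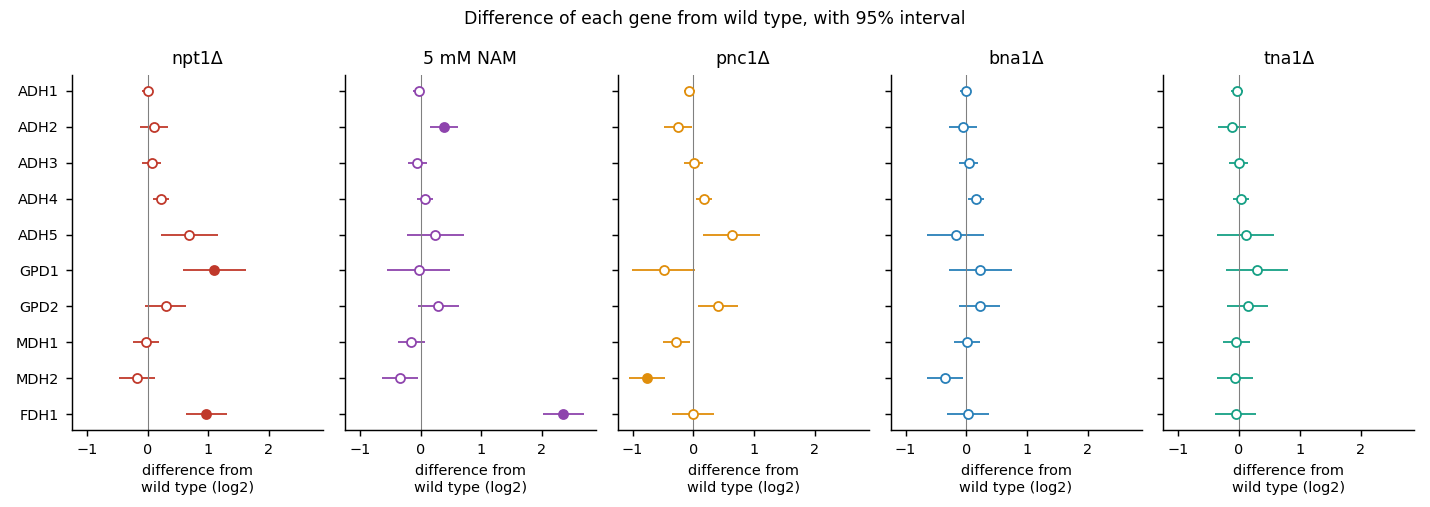
Difference of each gene from wild type (log2, horizontal axis) in the 5 conditions, as points with 95% intervals from the limma fit; filled points passed an adjusted p of 0.05. The filled points are GPD1 and FDH1 in npt1Δ, ADH2 and FDH1 in nicotinamide (NAM) and MDH2 in pnc1Δ, and FDH1 in nicotinamide lies farthest from 0.

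As a set, the 10 genes were described by counts and medians. The median size of their log2 differences, regardless of sign, was 0.27 in pnc1Δ, 0.20 in npt1Δ and 0.20 in nicotinamide, beside 0.11, 0.12 and 0.14 over all probe sets tested. Both arrays lay outside the wild-type range for 7 of 10 genes in pnc1Δ (23.2% of all probe sets), 5 in nicotinamide (33.1%), 4 in npt1Δ (22.7%), 1 in bna1Δ (7.49%) and 1 in tna1Δ (10.8%). In pnc1Δ the 7 genes lay on both sides, with ADH4, ADH5 and GPD2 above and ADH1, ADH2, MDH1 and MDH2 below. Signed medians were close to 0 in every condition but npt1Δ, where the median was 0.16 beside -0.03 over all probe sets.

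Conditions were also set against each other directly, in 10 pairs, each adjusted over all probe sets. Among the 10 genes, 2 were called between npt1Δ and nicotinamide (9.04% of all probe sets), 2 between npt1Δ and pnc1Δ (6.02%), 1 between npt1Δ and bna1Δ (3.64%) and 1 between npt1Δ and tna1Δ (3.38%). Nicotinamide gave 2 against pnc1Δ (15.4%), 2 against bna1Δ (12.9%) and 2 against tna1Δ (13.4%). None was called between pnc1Δ and bna1Δ (2.46%), pnc1Δ and tna1Δ (1.13%) or bna1Δ and tna1Δ (0.0364%), by limma. Every gene called in these pairs was FDH1, GPD1 or ADH2.

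The order of the condition means was read for the 4 genes that passed the F test. For FDH1 it ran from nicotinamide (5.07) to npt1Δ (3.69), bna1Δ (2.75), wild type (2.72), pnc1Δ (2.71) and tna1Δ (2.66), and nicotinamide differed from npt1Δ and npt1Δ from bna1Δ, while the later neighbours did not pass. For GPD1 it ran from npt1Δ (13.02) to tna1Δ (12.22), bna1Δ (12.15), wild type (11.92), nicotinamide (11.89) and pnc1Δ (11.44). For MDH2 it ran from wild type (11.54) to tna1Δ (11.47), npt1Δ (11.37), nicotinamide (11.21), bna1Δ (11.19) and pnc1Δ (10.78), and for ADH2 from nicotinamide (7.32) to npt1Δ (7.05), wild type (6.94), bna1Δ (6.89), tna1Δ (6.82) and pnc1Δ (6.69). In GPD1, MDH2 and ADH2 no neighbours in that order passed the test against each other.

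The wild-type pairs were also compared with each other. For none of the 10 genes did ML8 differ from ML1 at an adjusted p under 0.05 in limma (0 of 10, with MDH2 at an unadjusted p of 0.0101, where 0.0728% of all probe sets were called). ML8 minus ML1 was 0.25 for GPD1, 0.24 for ADH5, 0.17 for ADH2 and -0.35 for MDH2. Without ML1 array B, when ML1 array A alone stood for its pair, GPD1 (0.76) and ADH5 (0.71) passed.

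**Figure D3:**
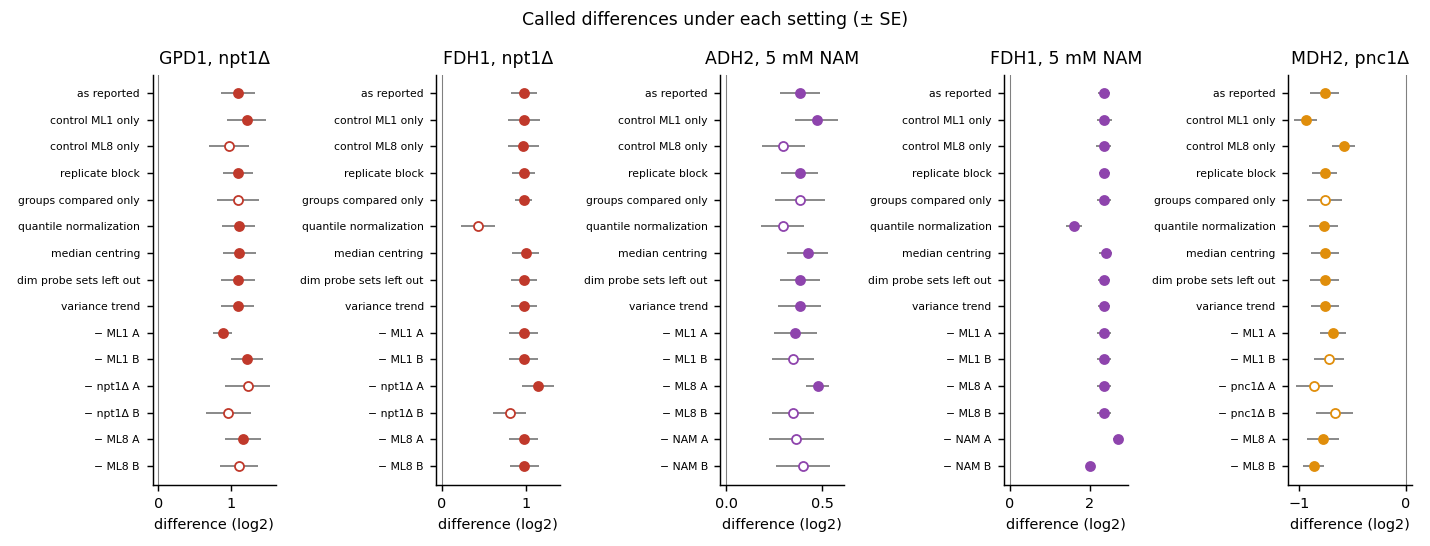
The 5 called differences (log2, horizontal axis, ± SE) as reported and under each other setting, from the control pair to leaving out single arrays; filled points passed an adjusted p of 0.05. Every point keeps its side of 0, FDH1 in nicotinamide is filled throughout, and FDH1 in npt1Δ is smallest after quantile normalization.

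The 2 nicotinamide arrays differed from each other in mating type genes. All 7 a-specific marker genes and all 9 haploid-specific ones were called lower there and none in a deletion strain, with median differences of -5.06 and -3.13 (log2). The mean signal of the a-specific markers was 9.36 (array A) and 7.0 (array B) in nicotinamide (13.00 to 13.12 in wild type), and that of the haploid-specific ones 7.70 and 6.01 (10.50 to 10.58 in wild type). FDH1 was likewise further from wild type on array B, whereas ADH2 was about equal on both arrays. The part of these genes in the FDH1 and ADH2 values was not tested.

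Other genes of the same pathways were counted in lists written from textbook knowledge, to be read beside the 4.2% of all probe sets called in npt1Δ, 15.9% in nicotinamide and 2.24% in pnc1Δ. In glycolysis 2 of 16 genes rose in npt1Δ and the same 2 in nicotinamide, the second pyruvate kinase gene PYK2 (1.09 and 0.77) and the glyceraldehyde phosphate dehydrogenase gene TDH1 (0.63 and 0.75), while the hexokinase gene HXK1 fell in pnc1Δ (-1.73). Of 10 genes of acetaldehyde and acetate metabolism, none was called in a deletion strain, and in nicotinamide the pyruvate decarboxylase genes PDC6 (0.99) and PDC5 (0.40) rose and the aldehyde dehydrogenase gene ALD6 fell (-0.60). Of 10 other glycerol genes, only FPS1, the glycerol channel gene, was called, lower in nicotinamide by 0.22. The glycerol 3-phosphatase genes, which act after GPD1 and GPD2, were not called in npt1Δ, with GPP1 at 0.19 and GPP2 at 0.57 (chosen after their values were seen).

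In the citrate and glyoxylate cycles 25 genes were measured. None was called in npt1Δ, and in nicotinamide the mitochondrial citrate synthase gene CIT3 rose (0.81) and the succinyl-CoA ligase gene LSC2 fell (-0.45). In pnc1Δ the isocitrate dehydrogenase gene IDH2 fell by 0.72, and the list's median was -0.17 beside -0.01 over all probe sets. Without ML1 array A 5 genes were called lower in pnc1Δ, among them CIT1 (-0.71), IDH1 (-0.57) and IDH2 (-0.74), and in glycolysis 4, HXK1, GLK1, ENO1 and PYK2, with GPP2 (-1.15) the 1 call among the glycerol genes. Over all 5498 probe sets that fit called 202 in pnc1Δ, where the fit with every array called 123.

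Other dehydrogenase genes and genes of NADH oxidation were counted as well, beside the same shares of all probe sets (4.2% in npt1Δ, 15.9% in nicotinamide and 2.24% in pnc1Δ). Of 12 other alcohol and polyol dehydrogenase genes measured, SOR2 (1.30, a shared probe set) and the butanediol dehydrogenase gene BDH1 (0.49) rose in npt1Δ, and ADH7 rose by 2.13 ± 0.09 in nicotinamide (adjusted p = 8.25e-08). Of 15 dehydrogenase genes of amino acid and nucleotide metabolism, 5 rose in npt1Δ, 6 rose and 1 fell in nicotinamide, and 3 rose and 1 fell in pnc1Δ. The inosine monophosphate dehydrogenase gene IMD2, on a shared probe set, rose by 1.42, 1.32 and 0.63 in these conditions, and the serine synthesis gene SER3 by 0.77, 0.49 and 0.53. The proline catabolism gene PUT2 rose in npt1Δ (0.68) and nicotinamide (0.60) and fell in pnc1Δ (-0.31), and GDH2, the NAD-linked glutamate dehydrogenase gene, fell in nicotinamide (-0.75). Of 14 genes of NADH oxidation and NAD transport, none was called in a deletion strain, and the external NADH dehydrogenase gene NDE2 (0.42) and the dicarboxylate carrier gene DIC1 (0.57) rose in nicotinamide. The signal of NDE2 averaged 2.32 over all arrays, close to the background limits of 2.22 to 2.26. Without ML1 array A, 4 of the 14 genes of NADH oxidation and NAD transport were higher and 1 lower in nicotinamide, 1 higher and 1 lower in npt1Δ and 2 lower in pnc1Δ. Of the 15 amino acid and nucleotide genes, 9 were then higher in nicotinamide and 4 in pnc1Δ, where HIS4 was added. Calls over all 5498 probe sets in that fit were 1156 in nicotinamide (874 with every array), 233 in npt1Δ (231) and 202 in pnc1Δ (123).

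Lists of genes under a common regulation, with genes of the regulators among them, gave mixed counts. They are again to be read beside 4.2%, 15.9% and 2.24% of all probe sets called in npt1Δ, nicotinamide and pnc1Δ. The glucose-repressed list held 18 other genes, targets of Adr1 or Cat8, as ADH2 is, together with ADR1 and CAT8 themselves. Of these, 4 rose in nicotinamide, led by SPS19 (3.16), PCK1 (0.93) and ADY2 (0.78), and 3 in npt1Δ, SPS19 (2.96), ADY2 (0.68) and CAT8 (0.63). The signal of CAT8 averaged 2.45 over all arrays, close to the background limits of 2.22 to 2.26. SPS19 encodes an enzyme of fatty acid breakdown first known from sporulation, PCK1 one of glucose synthesis, and ADY2 an acetate transporter. In pnc1Δ 1 rose and 1 fell, ATO3 (0.41) and ACH1 (-0.31). Of 18 other zinc-responsive genes, as ADH4 is, COS8 (1.42) and the zinc transporter genes ZRT1 (0.66) and ZRT3 (0.22) rose in nicotinamide, a share near that of all probe sets there, and in npt1Δ COS8 rose (0.89) and ZRT2 fell (-0.40). Of 15 other osmotic stress genes, as GPD1 is, none rose in npt1Δ, where YGP1 fell (-0.93). In nicotinamide HSP12 (1.14), GRE2 (0.84) and YGP1 (0.79) rose and GRE3 fell (-0.24), and in pnc1Δ YGP1 (-2.67) and GRE3 (-0.36) fell. Of 13 retrograde response genes, PDH1 rose in npt1Δ (0.53) and nicotinamide (0.67) and fell in pnc1Δ (-0.50), beside IDH2, and in nicotinamide DLD3 rose (0.46) and MKS1 fell (-0.38). Without ML1 array A, 4 retrograde genes were lower in pnc1Δ (CIT1 and IDH1 beside PDH1 and IDH2). Of these, CIT1, IDH1 and IDH2 are also on the citrate and glyoxylate list and were already counted there. In the same fit FBP1 joined ACH1 among the glucose-repressed genes in pnc1Δ (-0.59). In npt1Δ TDH1 and CAT8 were no longer called, which left 1 glycolysis gene, PYK2, and 2 glucose-repressed ones, SPS19 and ADY2. DDR2 joined the osmotic stress genes lower in pnc1Δ, which made 3. In nicotinamide the fit without that array gave 2 lower glycerol genes, 2 higher and 2 lower genes of the citrate and glyoxylate cycles, 2 higher alcohol or polyol dehydrogenase genes, 5 higher glucose-repressed genes and 2 lower osmotic stress genes, HOG1 and DDR2, with GRE3 no longer called. None of the 13 lists had a call in bna1Δ or tna1Δ.

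FDH1 and ADH4 lie near chromosome ends, as the 8th protein-coding gene from the end of chromosome XV and the 9th from the end of chromosome VII. Of the 9 measured genes within 5 places of FDH1, 5 rose in nicotinamide, where 8.88% of all probe sets did: FIT3 (0.63), a cell wall gene of iron uptake, FRE5 (1.2), YOR385W (0.70), YOR394C-A (0.88) and the seripauperin gene PAU21 (2.50, a shared probe set). PAU21 also rose in npt1Δ (1.36) and FIT3 fell in pnc1Δ (-0.81), while the genes directly beside FDH1, YOR387C (0.40) and YOR389W (0.18), were not called in nicotinamide. Around ADH4, 3 of 10 genes rose in nicotinamide, YGL258W-A (1.98), ZRT1 (0.66) and HFM1 (0.86), and YGL258W-A also rose in npt1Δ (1.49). ADH4 itself moved by 0.07 and 0.21 in these conditions without a call, and its other direct neighbour, MNT2, by -0.14 and -0.06. Called neighbours also lay around members farther from chromosome ends. In nicotinamide 2 of 10 rose around each of ADH1, ADH3, ADH5, GPD1 and GPD2, 1 around MDH2 and 0 around ADH2 and MDH1. Around ADH2 and around ADH5, 2 fell. The genes directly beside GPD1 (chosen after their values were seen) rose in npt1Δ and nicotinamide, DIA3 by 2.62 and 2.85 and GPM2 by 3.07 and 2.10.

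**Figure D4:**
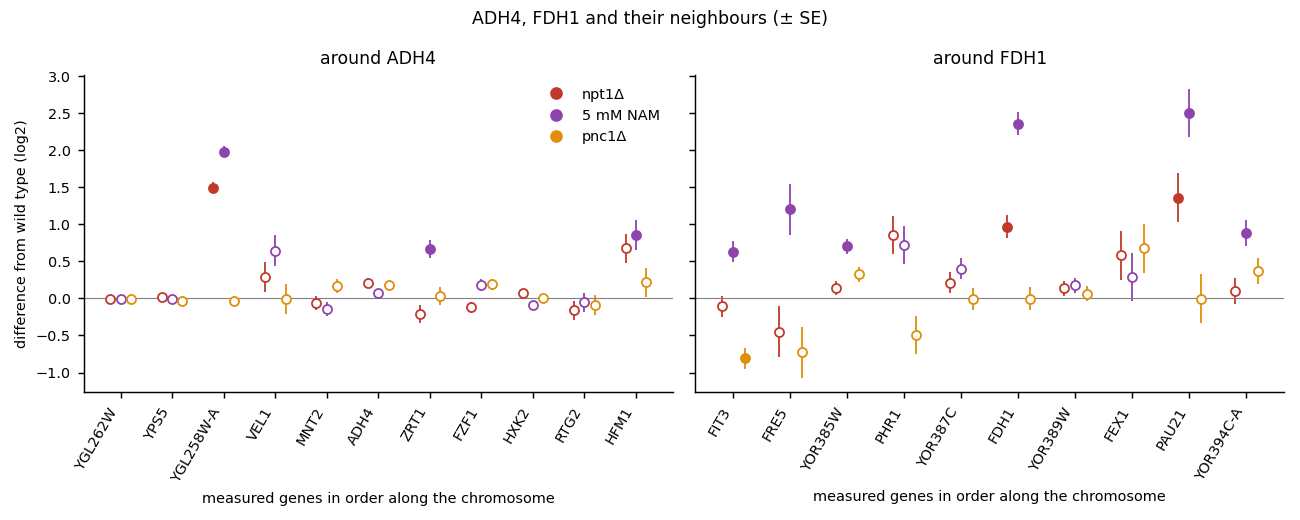
Differences from wild type (log2, vertical axis, ± SE) of ADH4 and FDH1 and of up to 5 measured genes on each side, in order along the chromosome; filled points passed an adjusted p of 0.05 (NAM, nicotinamide). Filled points in nicotinamide are spread over both regions, with FDH1 and PAU21 highest on the right and YGL258W-A on the left, while ADH4 lies near 0.

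For each gene that passed the F test, the 3 probe sets with the most similar pattern over the 14 arrays were listed as a description. FDH1 was followed most closely by SRL4 (Pearson r = 0.996), YNR064C (0.990) and ANS1 (0.988), with nicotinamide differences of 3.45, 2.87 and 4.02 and npt1Δ differences of 1.15, 0.85 and 1.58. GPD1 was followed by the nucleoside diphosphate kinase gene YNK1 (r = 0.929), the butanediol dehydrogenase gene BDH1 (0.921) and the mitochondrial pyruvate carrier gene MPC3 (0.885). Their differences were 0.18, 0.49 and 0.76 in npt1Δ, -0.17, -0.18 and -0.91 in pnc1Δ, and 0.01, 0.16 and -0.42 in nicotinamide. MDH2 was followed by the purine synthesis gene ADE4 (r = 0.882), the actin-binding protein gene ABP1 (0.846) and the pyruvate dehydrogenase gene LAT1 (0.823), lower in pnc1Δ by 0.38, 0.45 and 0.32. ADH2 was followed by the peroxiredoxin gene TSA2 (r = 0.889), the glutathione transferase gene ECM4 (0.867) and the siderophore transporter gene ARN2 (0.862), with nicotinamide differences of 1.25, 0.94 and 0.64. These arrays share their normalization and, within a pair, their condition.

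Among the 10 genes themselves, ADH2 and FDH1 had the most similar patterns (r = 0.792 over 14 arrays), followed by ADH1 and MDH2 (0.731), and GPD2 and MDH2 the most opposed (-0.559).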

How the data were processed

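Total RNA was hybridised to 14 Affymetrix Yeast Genome 2.0 arrays. The deposited values are log2 signals for 10928 probe sets, which the authors computed with GCRMA, per the submitters' processing notes (version not given in the sources used here). They were used as deposited. Arrays have no depth, and their number limits the precision. Nothing says that arrays A and B came from separate cultures, so p-values measure only the spread between these arrays, which may be technical.

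Probe sets were named through the platform annotation and the R64 reference tables, which gave 5498 probe sets of 5449 genes. Gene positions in those reference tables were used only to order genes along the chromosomes. The lmFit and eBayes functions of limma 3.58.1 (R 4.3.3) were run on all 14 arrays, with the 4 wild-type arrays as 1 group, and p-values adjusted by Benjamini-Hochberg over the 5498 probe sets of each comparison. Residual degrees of freedom were 8, to which eBayes added 2.01. Errors are standard errors of the contrast, from 2 arrays per condition against 4. The steps were tested on simulated data.

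The text names all 10 genes, up to 3 called genes of each of 13 lists per comparison, neighbours of genes near chromosome ends, and the 3 probe sets most similar to each gene that passed the F test. The genes directly beside GPD1 were named after their values were seen. Members and lists were chosen with earlier results of these data known. Alternatives were the control pair, quantile normalization, median centring, a variance trend, dim probe sets left out, only the compared groups fitted, the replicate letter as a block, and leaving out each array. Lists without ML1 array A and crossed ML1 letters were added after seeing the data. A planned description of protein and promoter sequences was not run here.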

Additional observations from a re-analysis of the deposited data

Results flagged for a closer look

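For ADH2, ML8 array A stood apart from the other 3 wild-type arrays at 7.22 (log2), with a gap to the nearest array of 0.909 of the whole wild-type range, where chance sets off about 1 such group in 20. Without that array the nicotinamide difference of ADH2 was 0.48 (adjusted p = 0.000558 in limma). The array was picked from these same values and was the wild-type array nearest to nicotinamide, so leaving it out had to enlarge the difference. That fit therefore adds no support to the call, which was lost when some other arrays were left out.

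The effects of some conditions on a gene, each taken against the same wild-type arrays, differed from one another in a direct limma contrast. For FDH1, npt1Δ minus nicotinamide was -1.39 (adjusted p = 0.000701), npt1Δ minus pnc1Δ 0.97 (adjusted p = 0.0084) and nicotinamide minus pnc1Δ 2.36 (adjusted p = 7.08e-06). For GPD1, npt1Δ minus nicotinamide was 1.13 (adjusted p = 0.0267) and npt1Δ minus pnc1Δ 1.58 (adjusted p = 0.00539). For ADH2, nicotinamide minus pnc1Δ was 0.64 (adjusted p = 0.00457).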

How the results depend on the processing

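The 5 called differences kept their direction under every alternative run, and FDH1 in nicotinamide kept its call throughout. Of 400 differences of the 10 genes recomputed under the other settings, 7 lost and 1 gained a call and none reversed while called. Of 300 with an array left out, 11 lost and 3 gained one. The number of the 10 genes called was 2 in npt1Δ, 2 in nicotinamide and 1 in pnc1Δ. In npt1Δ and in nicotinamide it was 1 against the ML8 pair alone, 1 with only the groups compared in the fit and 1 after quantile normalization, and in pnc1Δ it was 0 with only the groups compared. With an array left out it ranged from 0 to 3 in npt1Δ, from 1 to 2 in nicotinamide, from 0 to 2 in pnc1Δ, and from 0 to 2 for ML8 against ML1. The cause was not tested, and fits without an array or with only the groups compared have fewer arrays. With the replicate letter as a replicate block the counts were again 2, 2, 1, 0 and 0. The letters are not known to pair cultures: A minus B correlated at 0.107 to 0.593 in all 15 pairs of groups without ML1, and at -0.232 to 0.292 in the 6 with ML1, the ML8 pair (-0.215) included. Crossing the ML1 letters left 0 of 10 called between those pairs. Over all genes, calls in pnc1Δ numbered 123, with 258 against ML1, 68 against ML8, 29 with only the groups compared and 240 under the block. They numbered 202 without ML1 array A, 71 without ML1 array B, 22 without pnc1Δ array A and 51 without pnc1Δ array B. In npt1Δ 231 became 138 and in nicotinamide 874 became 533 with only the groups compared, and the latter 458 without nicotinamide array B. The single calls in bna1Δ and tna1Δ became 5 and 4 against ML8, 4 in bna1Δ against ML1, 2 in bna1Δ with a variance trend, and 2 to 5 in tna1Δ without ML1 array B or either tna1Δ array. Comparisons of protein and promoter sequences were not run.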
